A study of Mus musculus with 4 samples.

Results

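The receptors megalin (Lrp2) and cubilin (Cubn), the cubilin partner amnionless (Amn), the adaptor Dab2, the motor Myo6, the endosomal chloride transporter Clcn5, the inositol phosphatase Ocrl and the neonatal Fc receptor chain Fcgrt were followed in mouse kidney after bile duct ligation. These 8 genes, of 20656 gene symbols that could be named on the array, were chosen for their roles in apical endocytosis and found as every non-control probe whose RefSeq accession belongs to a member. The rule gave 12 probes, with 1 probe each for 5 genes, 2 each for Cubn and Ocrl and 3 for Clcn5. All 12 probes were well above background on all 4 arrays.

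In bile duct ligation (BDL) the common bile duct is closed surgically, so that bile backs up into the liver and the blood (cholestasis). Total RNA of whole kidney was taken 2 weeks after BDL or after a sham operation, in which the duct is not tied, from 2 biological replicates of each group. Each array carried the Cy3-labelled RNA of 1 kidney sample. Strain, genotype, sex and age of the mice are not given in the sources used here, and the series title names the renal handling of drugs in cholestasis as its question. Signals are given as log2 values from which the array's own 75th percentile was taken, so that 0 marks the signal that 75% of the probes do not exceed. Differences are BDL minus sham. Since probes differ in how well they hybridise, levels are compared between arrays for the same probe and not between genes. In whole-tissue RNA, fewer cells of a type and less RNA per cell cannot be told apart.

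The proximal tubule reclaims filtered proteins, vitamins and hormones from the primary urine. Megalin, a giant lipoprotein receptor, and cubilin, which has no membrane span of its own and reaches the brush border bound to amnionless, capture these ligands together. Dab2 links the receptor tails to the clathrin coat, Myo6 moves the coated vesicles inward along actin, and Clcn5 and Ocrl serve the acidification and phosphoinositide turnover of the endosome. Losses of CLCN5 and OCRL cause Dent disease and Lowe syndrome in humans, and losses of CUBN or AMN cause Imerslund-Gräsbeck syndrome. Fcgrt is the heavy chain of FcRn, which binds albumin and IgG in endosomes and returns them from degradation.

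Upstream sequences show how unlike the starts of these genes are in base composition. RefSeq promoter windows of GRCm38.p6 matched all 8 members, in 10 windows, and the 250 bases before the annotated start are used here. Shown are the 3 receptor genes, because their products work as a complex, and Fcgrt, which had the largest difference between the groups. Capitals mark matches on either strand to the GC box GGGCGG, to the box named CCAAT, to the E-box written CACGTG, to the TATA box letters TATAAA, to the nuclear receptor half-site AGGTCA and to the HNF1 half-site GTTAAT. The windows are chr2:69586030-69586279 (minus strand) for Lrp2, chr2:13491877-13492126 (minus strand) for Cubn, chr12:111270846-111271095 (plus strand) for Amn and chr7:45103823-45104072 (minus strand) for Fcgrt, each written 5′ to 3′.
Lrp2: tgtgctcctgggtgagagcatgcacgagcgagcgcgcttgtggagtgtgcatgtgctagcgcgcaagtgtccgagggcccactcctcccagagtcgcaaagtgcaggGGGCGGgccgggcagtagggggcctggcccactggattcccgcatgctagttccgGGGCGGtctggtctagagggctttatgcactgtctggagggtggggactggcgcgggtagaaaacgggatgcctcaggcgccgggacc
Cubn: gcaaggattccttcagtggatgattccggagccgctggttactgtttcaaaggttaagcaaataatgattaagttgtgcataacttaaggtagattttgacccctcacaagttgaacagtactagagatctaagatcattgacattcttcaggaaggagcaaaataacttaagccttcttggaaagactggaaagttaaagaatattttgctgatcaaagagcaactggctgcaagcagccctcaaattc
Amn: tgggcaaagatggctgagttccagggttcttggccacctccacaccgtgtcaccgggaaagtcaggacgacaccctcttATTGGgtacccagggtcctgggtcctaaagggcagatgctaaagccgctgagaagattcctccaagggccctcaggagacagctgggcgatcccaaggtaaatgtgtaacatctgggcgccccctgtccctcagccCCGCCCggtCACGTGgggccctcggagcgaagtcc
Fcgrt: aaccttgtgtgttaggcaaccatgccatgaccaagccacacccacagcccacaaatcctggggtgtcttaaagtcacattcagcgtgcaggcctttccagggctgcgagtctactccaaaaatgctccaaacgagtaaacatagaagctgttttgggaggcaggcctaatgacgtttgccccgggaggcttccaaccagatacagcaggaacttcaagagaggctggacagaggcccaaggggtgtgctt

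The Lrp2 window was 66.4% G and C and held 2 GC boxes, whereas the Cubn window was 39.6% G and C and held none of the 6 motifs. The Amn window (61.2%) held 1 GC box, 1 CCAAT and 1 E-box, and the Fcgrt window (53.2%) held none of the motifs. Over all 32851 windows of this length the median was 52.4%, with a 5th percentile of 34.8% and a 95th of 73.6%. GGGCGG was found in 5 of the 10 member windows and in 32.7% of all windows, CCAAT in 2 of 10 (33.8% of all), CACGTG in 1 (6.02%), TATAAA in 1 (12.4%, a Clcn5 window), GTTAAT in 1 (6.43%, a Dab2 window) and AGGTCA in 0 (14.0%). A match describes letters in these windows and is not a measured binding site.

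No member passed the test, and the megalin gene had almost the same level in both groups. With limma, 0 of the 12 member probes passed a Benjamini-Hochberg adjusted p of 0.05 and 0 had an unadjusted p under 0.05, while over all 32280 retained probes 0% passed the adjusted threshold and 5.65% had an unadjusted p under 0.05. The smallest unadjusted p among the member probes was 0.0790 and the adjusted p values ran from 0.867 to 0.999. By the brightest probe of each gene, 7 of 8 members had a difference above 0, as had 49.9% of all retained probes, and this count was 4 without sham replicate 2 and 4 without BDL replicate 2. The groups were apart, with BDL on top, in 3 of 8 members (18.2% of all retained probes), and with sham on top in 0 of 8 (18.5%). The median difference of the members was 0.16, and that of all retained probes was -0.00034.

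Sham replicate 2 had the lowest value of the 4 arrays in 7 of 8 members and in 10 of 12 member probes, whereas it was lowest in 25.8% of all retained probes. In lists described below, it was lowest in 15 of 30 acidification and lysosome genes and in 12 of 27 coat and adaptor genes. The same held for 12 of 31 endosome sorting genes, 4 of 13 relatives of megalin and 5 of 14 ligands and partners. Of the marker lists, it was lowest in 8 of 11 macrophage, 7 of 12 podocyte and 6 of 25 proximal tubule markers. It was lowest in 0 of 12 endothelial and 0 of 8 thick limb markers. Without this array the median difference of the members was 0.025, and without sham replicate 1 it was 0.32. Values are therefore given by array.

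**Figure D1:**
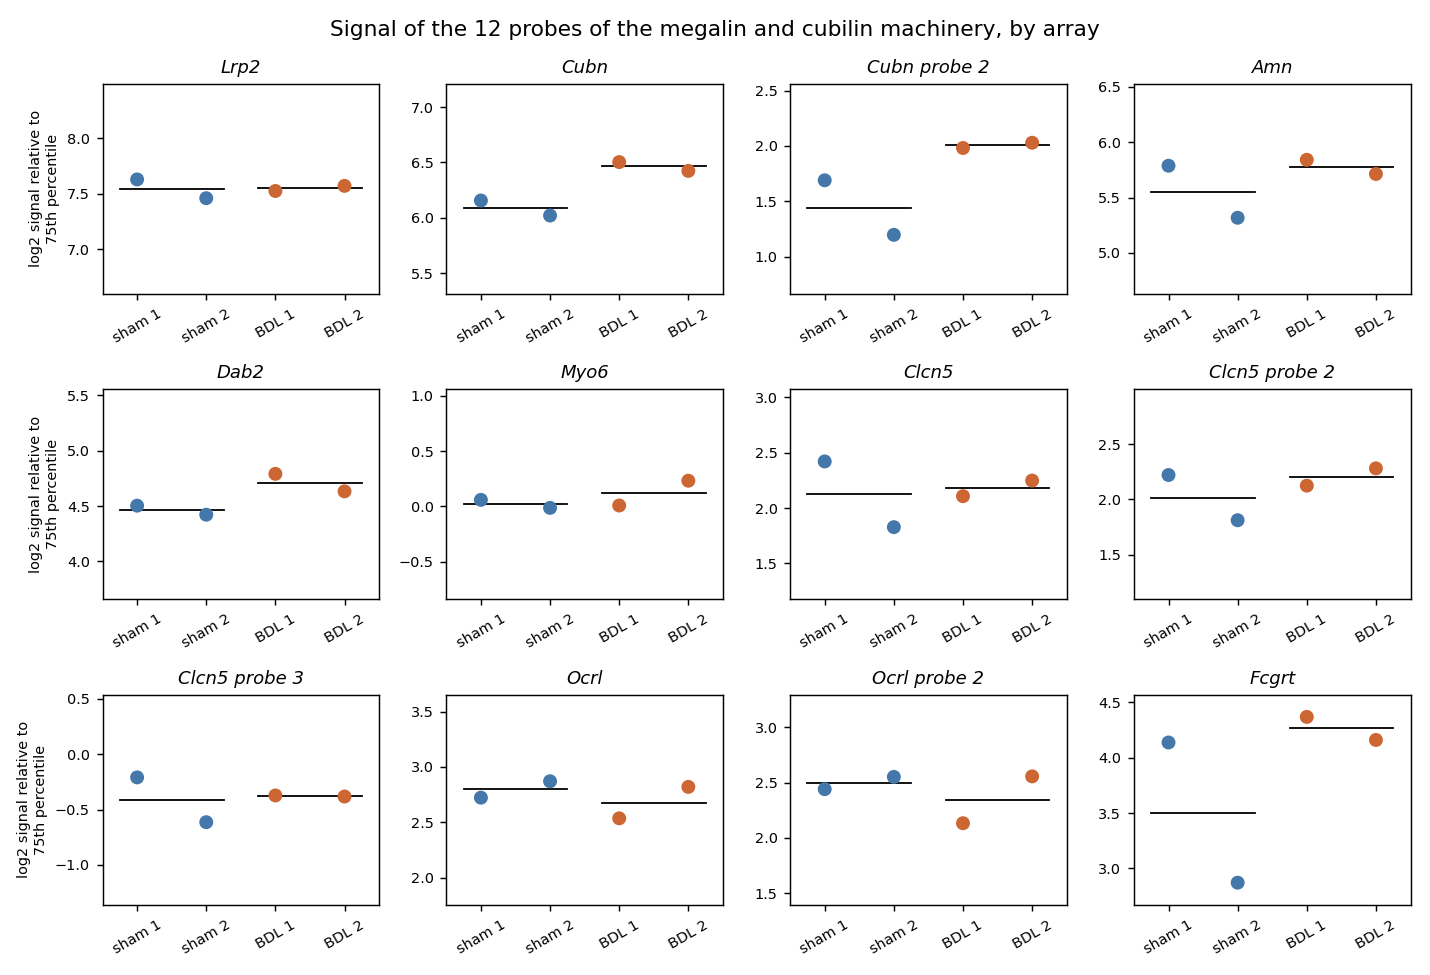
Each panel plots the log2 signal of 1 probe (vertical axis, relative to the 75th percentile of the array, all panels spanning the same number of log2 units) on the sham (blue) and BDL (orange) arrays, with black bars at the group means. The Lrp2 values run from 7.46 to 7.63 on all 4 arrays, both Cubn probes are higher on both BDL arrays, and Fcgrt is low in sham replicate 2 alone.

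Among the receptors, Lrp2 measured 7.63 and 7.46 in sham and 7.53 and 7.57 in BDL. Both BDL values lay between the sham values. The group means were 7.54 ± 0.12 in sham and 7.55 ± 0.033 in BDL (SD, n = 2), a difference of 0.0033 (SE 0.20, limma adjusted p = 0.999). Its 95% interval ran from 0.697-fold to 1.44-fold, so a doubling or a fall of that size lay outside it. The brightest member signal, 179673 units in BDL replicate 2, belonged to this gene and was below the scanner's saturation value of 778514.

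Cubn stood higher on both BDL arrays with both of its probes. The brighter probe gave 6.16 and 6.02 in sham and 6.50 and 6.42 in BDL, a 1.30-fold difference (0.38, SE 0.20, limma adjusted p = 0.867). The dimmer probe gave 1.69 and 1.20 in sham and 1.98 and 2.03 in BDL, or 1.48-fold (0.56, SE 0.25, adjusted p = 0.867). The sham values of the brighter probe were 0.14 apart and the BDL values 0.080 apart, less than the gap between the groups, and the interval from 0.905-fold to 1.86-fold still included no difference. Of all retained probes, 13.8% had a difference as high as that of the brighter Cubn probe or higher. Leaving out each array in turn moved that probe's difference between 0.31 and 0.44, and that of the dimmer probe between 0.32 (without sham replicate 2) and 0.81 (without sham replicate 1).

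Amn, whose product carries cubilin to the membrane, measured 5.79 and 5.32 in sham and 5.84 and 5.71 in BDL. Sham replicate 2 alone was low, and sham replicate 1 lay between the BDL values. The difference of 0.22 (SE 0.25, limma adjusted p = 0.905) became -0.011 without sham replicate 2 and 0.46 without sham replicate 1. The receptor subunits thus differed by 0.0033 for Lrp2, 0.38 for Cubn and 0.22 for Amn, and the differences between these genes were not tested.

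Of the genes that move the coated vesicle, Dab2 gave 4.50 and 4.42 in sham and 4.79 and 4.63 in BDL. The groups did not overlap, and the difference was 1.19-fold (0.25, SE 0.20, limma adjusted p = 0.884), with a range from 0.17 to 0.33 over the fits that left out 1 array. Myo6, the actin motor that runs toward the minus end, gave 0.060 and -0.013 in sham and 0.0087 and 0.23 in BDL. Only BDL replicate 2 stood above the sham values, and the difference was 0.097 (SE 0.21, adjusted p = 0.947) with all arrays and -0.015 without BDL replicate 2.

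Clcn5, which exchanges chloride for protons in the endosome, was measured by 3 probes that all overlapped between the groups. The brightest gave 2.42 and 1.83 in sham and 2.11 and 2.25 in BDL, a difference of 0.054 (SE 0.28, limma adjusted p = 0.979). The sham arrays were 0.59 apart and the BDL arrays lay between them. The other probes differed by 0.19 (SE 0.24) and 0.034 (SE 0.23), and in each of them sham replicate 2 was the lowest array. The brightest probe's difference turned to -0.24 when sham replicate 2 was left out and reached 0.35 when sham replicate 1 was. The other probes turned sign without sham replicate 2 as well, to -0.018 and -0.17.

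Ocrl, a phosphatase that removes a phosphate from phosphoinositides of the endosome, was the member with a difference below 0. Its brighter probe gave 2.72 and 2.87 in sham and 2.54 and 2.82 in BDL, and its other probe gave 2.44 and 2.55 in sham and 2.13 and 2.56 in BDL. In both probes BDL replicate 1 was the low array. The differences were -0.12 (SE 0.22, limma adjusted p = 0.937) and -0.15 (SE 0.24, adjusted p = 0.928), and without BDL replicate 1 they were 0.023 and 0.060.

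Fcgrt had the largest difference of the members and also the widest spread. It gave 4.14 and 2.87 in sham and 4.37 and 4.16 in BDL. Both BDL values were above both sham values, but sham replicate 1 was only just below BDL replicate 2. The difference was 1.69-fold (0.76, SE 0.46, limma adjusted p = 0.868) with an interval from 0.727-fold to 3.94-fold, and 8.40% of all retained probes had an absolute difference of that size or more. The sham arrays were 1.27 apart, a gap that 6.04% of retained probes reached. Without sham replicate 2 the difference was 0.13, and without sham replicate 1 it was 1.39.

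**Figure D2:**
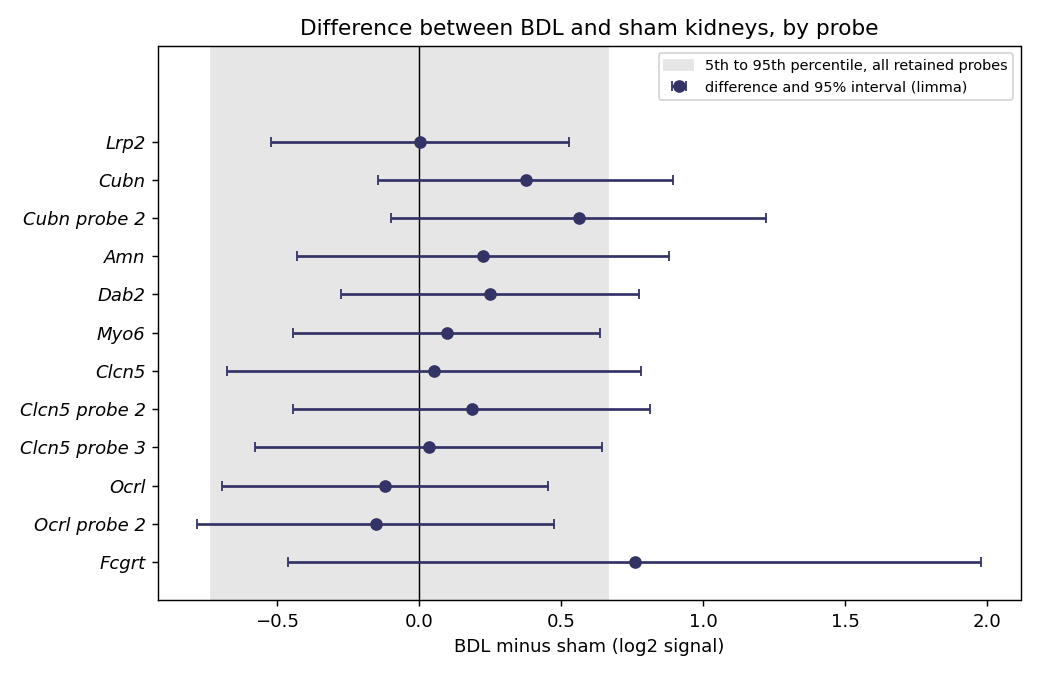
Points are the BDL minus sham differences (log2 signal, horizontal axis) of the 12 member probes with 95% intervals from limma, over a grey band from the 5th to the 95th percentile of all 32280 retained probes (-0.73 to 0.66). Every interval includes 0, those of Cubn reach least far below it, and Fcgrt has the widest interval.

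The precision was limited by 2 arrays per group. The intervals of 10 of the 12 member probes lay wholly within 2-fold in either direction, as did 58.6% of all retained probes, and the exceptions were the dimmer Cubn probe and Fcgrt. Probes of the same gene differed from each other by less than their errors, by up to 0.19 between the Cubn probes, 0.15 among the Clcn5 probes and 0.033 between the Ocrl probes. The smallest two-sided p that an exact permutation of these samples allows is 0.333.

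**Figure D3:**
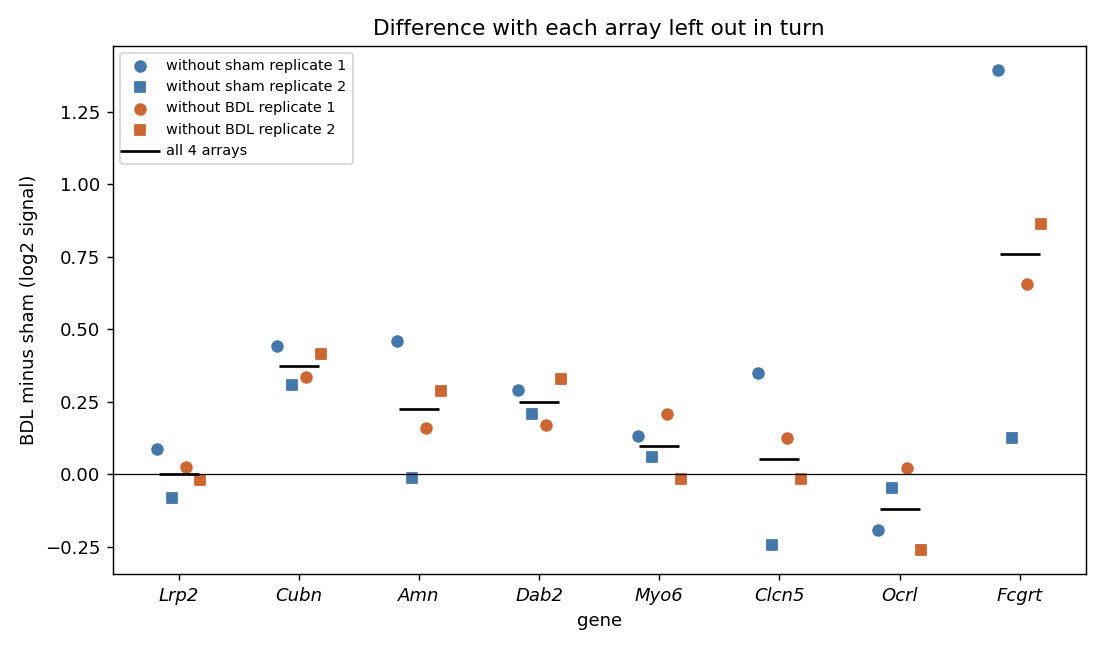
The BDL minus sham difference (log2 signal, vertical axis) of each member's brightest probe is shown with all 4 arrays (black bars) and with each array left out (circles for replicate 1, squares for replicate 2, blue for a sham and orange for a BDL array left out). Cubn and Dab2 keep positive values in all 4 such fits, Fcgrt runs from 0.13 to 1.39, and Lrp2 stays between -0.081 and 0.088.

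FcRn is made of Fcgrt and beta-2-microglobulin, the product of B2m, which also pairs with MHC class I chains. B2m measured 7.90 in sham replicate 1 and 5.80 in sham replicate 2, against 5.87 and 5.41 in BDL. The difference of -1.21 (SE 0.73, limma adjusted p = 0.868) was -0.15 without sham replicate 1. Of the interferon response genes, 11 of 13 were also highest in sham replicate 1, the exceptions being Ifi44, highest in sham replicate 2, and Rsad2, highest in BDL replicate 1. Their median difference was -1.56 with all arrays and -0.76 without sham replicate 1. All 13 measured members of the 14 listed were well above background on all arrays, 12 of the 13 were lower in BDL with no overlap (18.5% of all retained probes), and their summed level (signal relative to the 75th percentile, added over genes) was 48.1 and 14.8 in sham and 11.3 and 9.03 in BDL. Their part in the B2m difference was not tested.

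The proximal tubule markers had a median difference of -0.14, which turned to 0.011 without sham replicate 1. Of 25 proximal tubule markers, all measured and all well above background on the 4 arrays, 7 were higher and 18 lower in BDL. Without overlap, 3 were higher (18.2% of all retained probes) and 6 lower (18.5%). The summed level of the 25 was 4300 and 3597 in sham and 3627 and 3515 in BDL. Slc34a1, the main phosphate transporter of the brush border, differed by -0.14 (8.44 and 8.17 in sham, 8.20 and 8.14 in BDL), and the sodium-glucose transporter gene Slc5a2 by -0.031. The 3 that were higher without overlap were Slc22a8 (0.80, SE 0.23), an organic anion transporter, Slc5a12 (0.75, SE 0.20) and Slc7a9 (0.44, SE 0.22), with limma adjusted p values of 0.857, 0.828 and 0.867. The 6 that were lower without overlap are not named, and differences in the list ran from -0.83 to 0.80. The smallest limma adjusted p of the list, 0.813, was that of a marker not named here. An unadjusted limma p under 0.05 was found for 2 higher and 2 lower markers (5.65% of all retained probes). Sham replicate 1 was the high array of this list, while the members were lowest in sham replicate 2. Later nephron segments were at their highest summed level in sham replicate 2. The 8 thick limb markers summed to 450 and 721 in sham and 564 and 433 in BDL, and all 8 were highest in that array. The 11 collecting duct markers summed to 75.9 and 133 in sham and 112 and 106 in BDL, but only 5 of them were highest in sham replicate 2. Gene by gene, 10 of the 11 were higher in BDL (49.9% of all retained probes), 4 without overlap (18.2%). Their median difference of 0.35 was -0.0022 without sham replicate 1. The 9 measured urothelial markers summed to 4.49 and 13.1 in sham, 92.1 in BDL replicate 1 and 2.01 in BDL replicate 2. The part of these cells in the members' values was not tested.

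Other cells of the kidney can express members too, among them Fcgrt in endothelial cells, podocytes and macrophages, Dab2 in macrophages and Cubn in podocytes. Of 12 podocyte markers, 11 were higher in BDL (49.9% of all retained probes) and 9 without overlap (18.2%), and their summed level was 44.9 and 38.9 in sham and 71.4 and 61.4 in BDL. Of 12 endothelial markers, 10 were higher, with a summed level of 65.7 and 92.0 in sham and 88.8 and 87.7 in BDL, and their median of 0.19 turned to -0.085 without sham replicate 1. Of 12 macrophage markers, 11 were measured (Cd68 was not), 4 of them higher, with a summed level of 85.1 and 66.0 in sham and 71.9 and 66.1 in BDL. The macrophage median of -0.061 was 0.64 without sham replicate 1 and -0.66 without sham replicate 2. In median, macrophage markers lay 0.67 above their mean over the arrays in sham replicate 1 and 0.65 below it in sham replicate 2, the array in which Fcgrt was 1.01 below its own mean. The part of these cells in the Cubn, Dab2 and Fcgrt values was not tested.

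**Figure D4:**
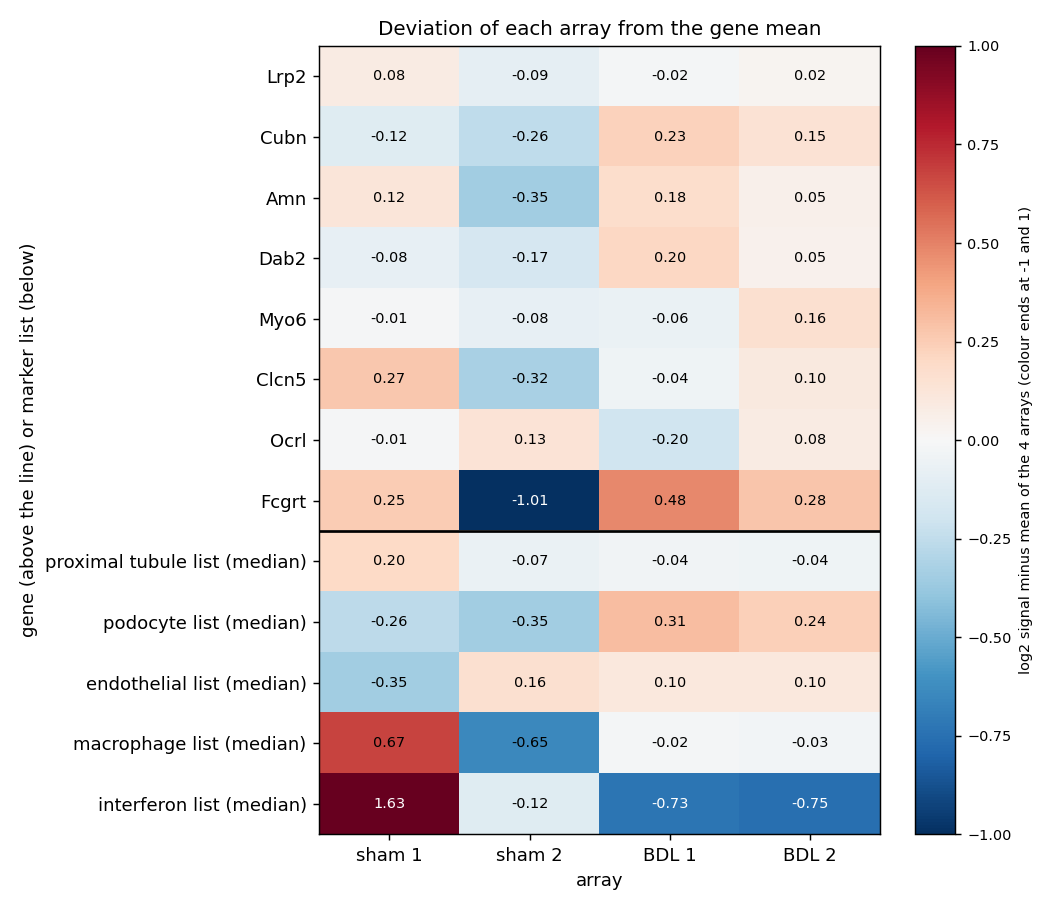
Cells give the log2 signal of each array (columns) minus the mean of the 4 arrays for the members' brightest probes (upper rows), and the median of that deviation over each marker list (lower rows), red for above and blue for below the mean. Sham replicate 2 is below the mean in every member except Ocrl, from -0.085 in Myo6 to -1.01 in Fcgrt, and the podocyte list is above it on both BDL arrays (0.31 and 0.24).

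Other genes of the endocytic route lay on both sides of 0. Of 120 entries in 5 further lists (coat and adaptors, endosome sorting, acidification and lysosome, relatives of megalin, ligands and partners), 115 were measured, 53 higher and 62 lower in BDL. The groups were apart with BDL on top in 14 of them (12.2%, against 18.2% of all retained probes) and with sham on top in 17 (14.8%, against 18.5%). With limma 0 of the 115 passed the adjusted threshold (0% of all retained probes). An unadjusted p under 0.05 was found for 4 of the 115, against 5.65% of all retained probes. The median difference of each of the 5 lists took both signs over the fits that left out 1 array.

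Coat and adaptor genes, which bend the membrane and gather receptors, had a median difference of 0.023 over 27 genes, 15 of them higher. Numb, an adaptor with a domain related to that of Dab2, gave -1.07 and -1.48 in sham and -0.60 and -0.84 in BDL (0.55, SE 0.25, limma adjusted p = 0.867), or 0.34 without sham replicate 2. Eps15, a scaffold of the coated pit, differed by 0.30 (SE 0.20) and Fcho1 by -0.28 (SE 0.21), the latter by -0.18 without BDL replicate 2. Dab1, the relative of Dab2 known from neurons, differed by -0.32 (SE 0.22), or -0.20 without BDL replicate 1. Its dimmer probe had the opposite sign, at 0.16 (SE 0.67).

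Endosome sorting genes had a median of -0.00077 over 31 measured genes, with 14 higher and 17 lower. Rab38, a small GTPase, gave 2.93 and 2.44 in sham and 2.22 and 2.24 in BDL (-0.46, SE 0.25, limma adjusted p = 0.868), or -0.21 without sham replicate 1. Rab5a, which directs early endosome fusion, differed by -0.24 (SE 0.22), and Rab11a and Myo5b, which serve recycling to the surface, by 0.20 (SE 0.20) and 0.28 (SE 0.24). These were -0.087 for Rab5a without BDL replicate 1, 0.087 for Rab11a without sham replicate 2 and 0.057 for Myo5b without sham replicate 1. The dimmer probes of Rab5a and Myo5b had the opposite sign, at 0.14 (SE 0.22) and -0.069 (SE 0.19). Inpp5b, the closest relative of Ocrl, differed by -0.00044 (SE 0.25), with either sign as arrays were left out (-0.20 to 0.20). Its dimmer probe differed by 0.26 (SE 0.33).

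Ctns was the pathway gene with the smallest unadjusted p. It encodes cystinosin, the lysosomal cystine exporter whose loss causes cystinosis and a proximal tubule Fanconi syndrome. It gave 1.04 and 0.65 in sham and 2.44 and 2.28 in BDL, so that the groups were further apart than the arrays within either group. The difference was 2.86-fold (1.51, SE 0.24, interval from 1.86-fold to 4.39-fold), which did not pass over all retained probes (limma adjusted p = 0.595). Leaving out each array in turn kept it between 1.32 and 1.71.

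The list of acidification and lysosomal breakdown, to which Ctns belongs, was otherwise mixed. Of its 30 genes, 11 were higher and 19 lower, with a median of -0.051. It holds 17 subunits and accessory proteins of the vesicular proton pump, of which 13 overlapped between the groups, 3 were lower without overlap (18.5% of all retained probes) and 1, Atp6ap2 (0.25, SE 0.20), was higher without overlap (18.2%). The lower ones were Atp6v0a1 at 0.782-fold of the sham level (-0.35, SE 0.21), Atp6v1a (-0.28, SE 0.21, or -0.16 without sham replicate 1) and Atp6v1g1 (-0.24, SE 0.21), short of the threshold (limma adjusted p = 0.868, 0.882 and 0.888). Of the close relatives of Clcn5, Clcn4 gave 4.48 and 4.37 in sham and 4.13 and 4.13 in BDL (-0.29, SE 0.19), and Clcn3 differed by -0.033 (SE 0.23), with either sign as arrays were left out (-0.20 to 0.13). The dimmer Clcn3 probe differed by 0.18 (SE 0.21).

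Among the relatives of megalin, 6 of 13 measured genes were higher and the median was -0.049. Lrp12 gave 0.90 and -0.017 in sham and 2.25 and 1.16 in BDL (1.26, SE 0.51), and 0.72 without BDL replicate 1. Lrp1, the broadly expressed relative of megalin, differed by 0.22 (SE 0.22), or 0.066 without sham replicate 1. Lrp11 differed by -0.62 (SE 0.33), or -0.29 without BDL replicate 1, and Sorl1 by -0.53 (SE 0.37), or -0.077 without sham replicate 2.

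Genes for ligands of the receptors were on balance neither higher nor lower, 7 each of 14 measured. Plat, the tissue plasminogen activator gene and a megalin ligand, gave 0.89 and 0.91 in sham and 1.69 and 1.89 in BDL (0.89, SE 0.20, limma adjusted p = 0.794). Ttr, the thyroxine carrier, differed by -1.23 (SE 0.28, adjusted p = 0.794). Apoh differed by -1.94 (SE 0.67), or by -1.01 without sham replicate 1, where it was 3.33 against 1.48 in sham replicate 2. Trf, the transferrin gene, gave 1.63 and 1.51 in sham and 3.76 and 2.18 in BDL, with BDL replicate 1 far above the rest, and its difference of 1.40 (SE 0.55) was 0.61 without that array.

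**Figure D5:**
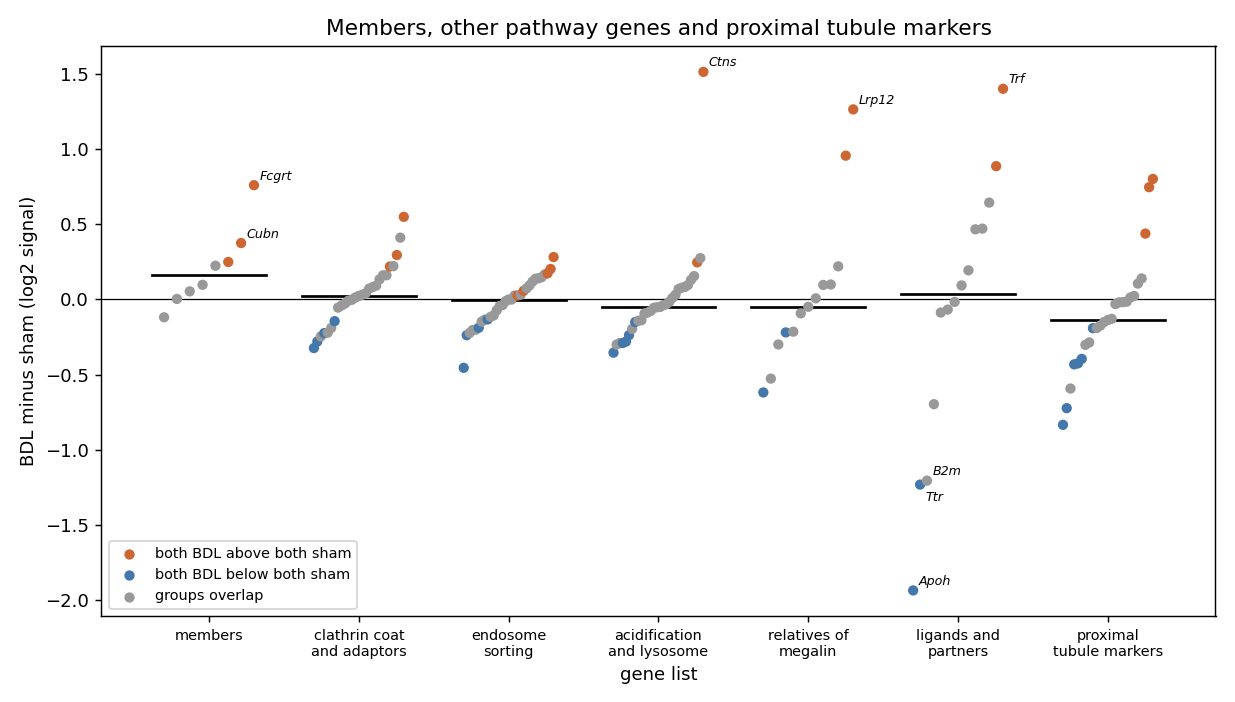
Each point is the BDL minus sham difference (log2 signal, vertical axis) of the brightest probe of a gene, by list (horizontal axis), coloured by whether the groups overlap, with a black bar at the list's median. The members' median of 0.16 lies above the medians of the other lists shown, which run from -0.14 to 0.038. Without sham replicate 2 the members' median is 0.025 against 0.060 for the ligands and partners. Ctns, Lrp12 and Trf are the highest points. Of the lists not drawn, podocyte (0.45), endothelial (0.19), collecting duct (0.35) and urothelial (0.63) markers had higher medians than the members. Macrophage (-0.061), thick limb (-0.21) and interferon (-1.56) genes had lower ones.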

How the data were processed

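Kidney RNA of 4 samples was measured on 1-colour arrays whose images were quantified in Agilent Feature Extraction 11.0.1.1 (version per the submitters' processing notes). The deposited processed signal is a linear intensity. Per the file headers, background and a spatial trend were removed within each array and nothing was scaled across arrays, and all 4 arrays share 1 slide. The other deposited columns used are raw intensities and spot flags. In the authors' deposited table, each array's processed signals were divided by a fixed number, its own for each array (to within 1% for 100% of the values), with column medians of 0.328 and 0.339 for sham and 0.329 and 0.330 for BDL, linear and not centred by gene; what set those numbers stays unknown. It holds 11 of the 12 member probes.

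Control and outlier spots were left out, replicate spots averaged, and log2 signals set to each array's 75th percentile (712 and 849 units in sham, 741 and 945 in BDL). Between 57.7% and 63.1% of spots were well above background and 0 were saturated. Accessions were looked up among RefSeq genes of GRCm38.p6 (for names only, since the array grid lists mm9), which named 27229 of 55668 probes. Probes called well above background in both replicates of either group (32280) were tested with limma 3.58.1 in R 4.3.3 (operation as the only term, two-sided, Benjamini-Hochberg over all of them, threshold 0.05), with a check on simulated data. Where a gene had several retained probes, the brightest on average stood for it. Named are all member probes, close relatives, B2m and the 4 genes of each pathway list with the smallest p, besides the marker genes of the proximal tubule and interferon lists and the proton pump genes Atp6ap2 and Atp6v1g1, chosen after their values were seen; a few items that the rule names are not reported here. The members and lists were chosen with earlier results of these data known. Alternatives were normexp (offset 50), quantile and median scaling, the authors' table, other filters, 1 probe per gene, array weights, a replicate block and leaving out each array.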

Additional observations from a re-analysis of the deposited data

How the results depend on the processing

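Under every alternative that kept all 4 arrays, 0 member probes and 0 of all retained probes passed an adjusted p of 0.05 with limma. In these fits 0 member probes had an unadjusted p under 0.05, except with normexp. There it was 1 of the 12 member probes, and 1720 of all 32280 retained probes. Leaving out an array, with the lone sample assumed to vary like the other group, moved the members' median difference between 0.025, where sham replicate 2 was left out, and 0.32, where sham replicate 1 was, and the count of members with a difference above 0 from 4 (without sham replicate 2 or BDL replicate 2) to 8 (without BDL replicate 1); this count was examined after seeing the data. The differences ran from -0.081 to 0.088 for Lrp2, -0.011 to 0.46 for Amn, -0.015 to 0.21 for Myo6, -0.24 to 0.35 for Clcn5 and -0.26 to 0.023 for Ocrl, each turning sign, while those of Cubn (0.31 to 0.44), Dab2 (0.17 to 0.33) and Fcgrt (0.13 to 1.39) did not. Other filters, 1 probe per gene, array weights and the replicate block kept the same group means, so the differences could not move under them. Among normexp, quantile and median scaling and the authors' table, only Lrp2 turned sign, to -0.057 with normexp. The members' median was 0.15 with normexp and 0.18 with median scaling. In the authors' table, which lacks the Myo6 probe, it was 0.22 over the remaining members. With the replicate number as a block, which could not move the median of 0.16, 0 member probes passed. Same-numbered arrays deviated together only weakly (r = 0.0699 across probes), so the numbers were not taken to pair the samples. All member probes were well above background, and the number of arrays limits the precision.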
